A study of Mus musculus with 9 samples.

Results

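The genes described here are those of the WNT signalling system in cells sorted from mouse lung: WNT ligands, their Frizzled (FZD) and LRP receptors, secreted antagonists, R-spondins with their LGR receptors, and feedback genes and nuclear factors of the pathway. They were chosen by symbol, as every row named Wnt, Fzd, Sfrp, Rspo or Dkk with a number, together with Frzb, Wif1, Lrp5, Lrp6, Lgr4, Lgr5, Lgr6, Axin2, Lef1, Tcf7, Nkd1, Nkd2, Znrf3 and Rnf43. That rule found 55 of the 19348 genes in the table: 19 ligands, 12 receptors, 10 antagonists, 7 R-spondins and LGR receptors, and 7 feedback genes and nuclear factors. RNA was sequenced from 9 libraries of sorted cells. All came from C57BL/6J mice with 2 reporters, a green one of type I collagen (Col1_GFP) and a red one of Foxf1 (Foxf1_tdTomato), a forkhead transcription factor of lung mesenchyme and endothelium. Cells with both reporters make up DBL (replicates 1, 3 and 4), those with the collagen reporter ColGFP and those with the Foxf1 reporter TDonly (replicates 1, 2 and 3 of each). A library is named below by its population and replicate number, as DBL 3. The 3 populations share strain, genotype and tissue, and the sources used here do not state age, sex, treatment or sort gates. Whether replicates are separate animals is not stated either, so p-values measure the spread between these libraries, which may be technical.

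WNT proteins are lipid-modified secreted ligands that bind FZD receptors. With the co-receptors LRP5 and LRP6 they keep beta-catenin from being degraded, and beta-catenin then drives target genes such as Axin2 together with the DNA-binding factors TCF and LEF. Other ligands, Wnt5a among them, act mostly without beta-catenin. The ubiquitin ligases ZNRF3 and RNF43 remove FZD receptors from the cell surface, and R-spondins bound to LGR receptors block these ligases, which raises the response to WNT. In the lung the mesenchyme is a main source of WNT ligands for the epithelium, and Fzd4 is a receptor of blood vessels.

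Total counts were 17820969 to 26147475 per library. Levels are given in CPM, read counts divided by library size after scaling with TMM factors. Foxf1 (Foxf1a in the table) measured 87.3 to 113 CPM in DBL, 54.5 to 62.5 in ColGFP and 229 to 279 in TDonly. The collagen gene Col1a1 measured 9539 to 13224, 4939 to 9593 and 373 to 1566 CPM, so collagen transcripts were also present in the cells sorted without the collagen reporter. The endothelial gene Pecam1 measured 572 to 843, 98.8 to 159.6 and 1749 to 2135 CPM. Summed levels of 12 epithelial markers were 6322 to 6890.0, 3464 to 10176 and 9665 to 12884 CPM, and those of 10 leukocyte markers 1316 to 1513, 954 to 2425 and 2014 to 2886 CPM. Replicate 1 of each population differed most from its group: the chi-square divided by its degrees of freedom between 2 libraries of a population was 53.8 to 98.8 for pairs with replicate 1 and 5.32 to 14.6 for the other pairs. The 3 replicate 1 libraries have sequencing core numbers in a lower range than the 6 others, which are called the second series below, and no label calls these a batch. In bulk samples, fewer cells of a type and less RNA per cell cannot be told apart.

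Of the 55 genes, 48 passed the filter on low counts. The other 7 (Wnt1, Wnt3, Wnt8a, Wnt8b, Wnt10a, Wnt16 and Dkk4) had at most 15 counts in any library and no test. Of the 48, 37 were at or above 0.432 CPM, the level the filter asks of 3 libraries, in all 9 libraries. For 8 genes (Frzb, Fzd9, Lef1, Lgr5, Rspo2, Rspo4, Wnt6 and Wnt7a) this held in all libraries of 2 populations, for Fzd10 and Wnt9b of 1 population, and for Dkk1 of none. Such genes enter through the libraries where they are high, so the counts that follow describe the genes that passed and support nothing beyond them.

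**Figure D1:**
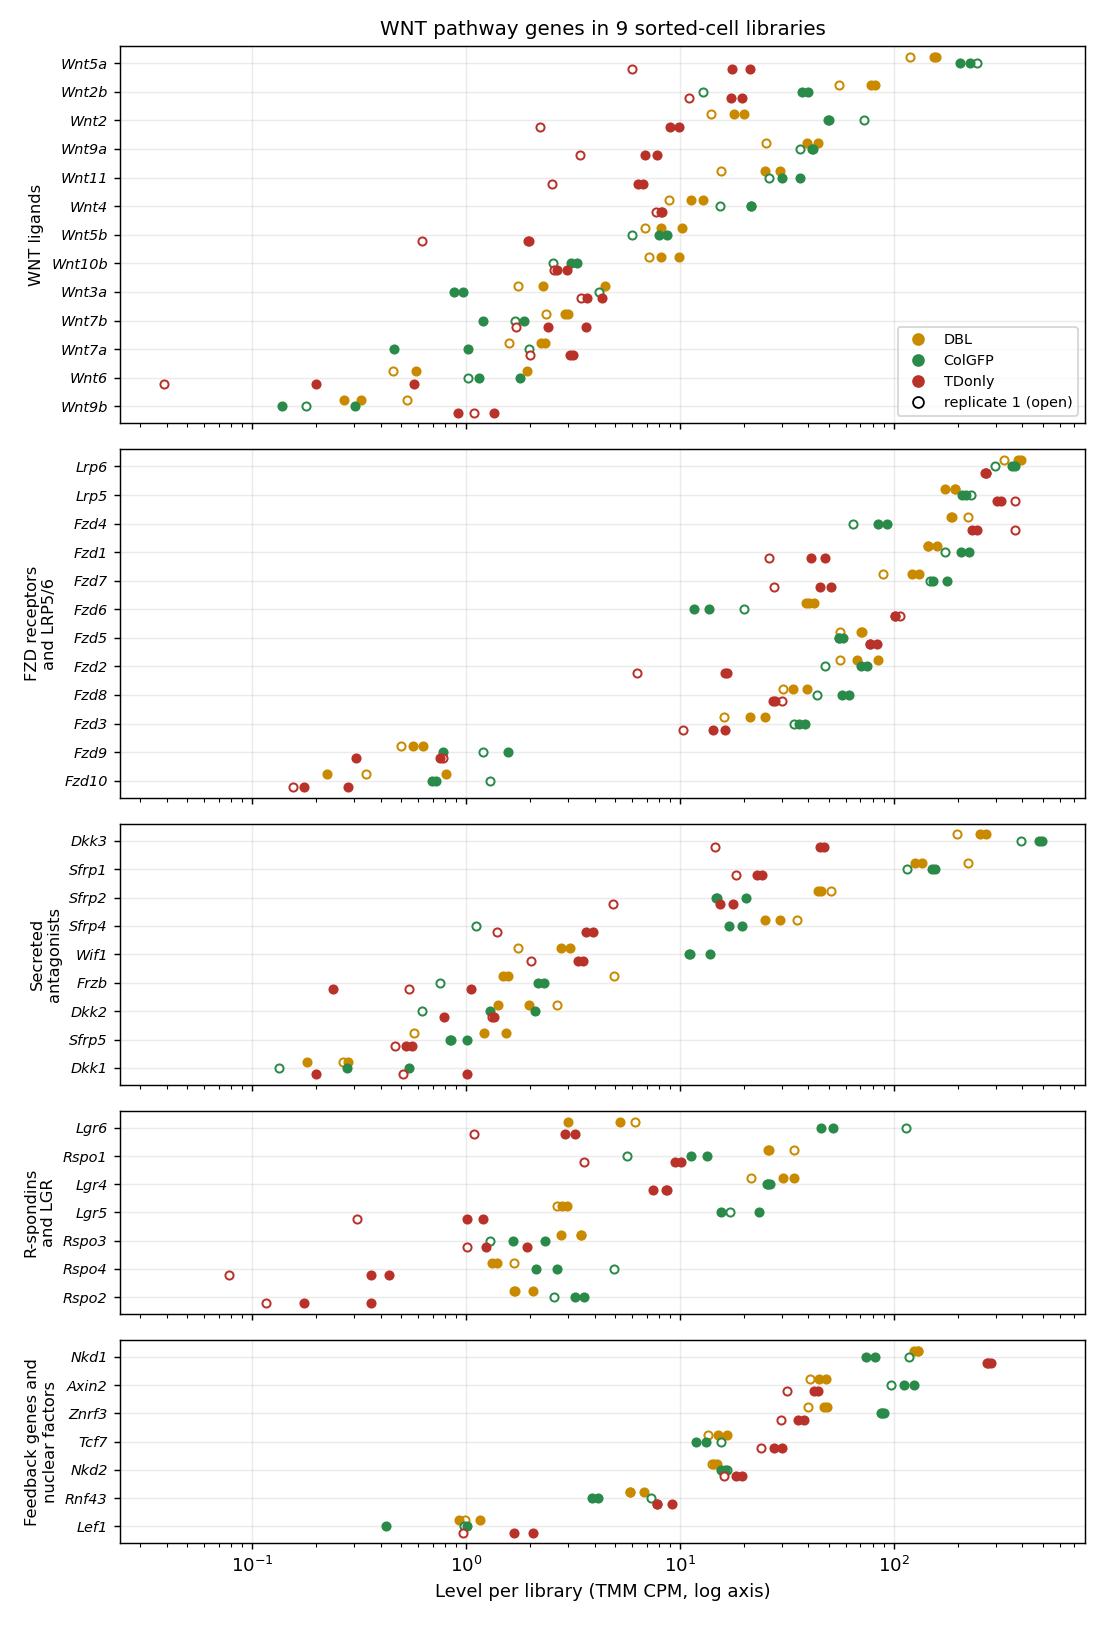
Level of each of the 48 tested genes in each library (TMM CPM, log axis), grouped by role, with 1 point per library and open points for replicate 1. TDonly points (red) lie left of the others for Wnt5a, Fzd1, Dkk3 and Rspo2 and right of them for Fzd6 and Nkd1, and ColGFP points (green) lie right of the others for Lgr5, Lgr6, Wif1 and Axin2.

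ColGFP cells held more transcript of Lgr5, Lgr6, Wif1, Wnt2, Axin2 and Znrf3 than DBL cells, while Rspo1, Sfrp2, Wnt10b, Fzd4 and Fzd6 were higher in DBL. Between DBL and ColGFP, 5 of the 48 genes were higher in DBL and 9 lower at an adjusted p under 0.05 (quasi-likelihood test of edgeR, adjusted by Benjamini-Hochberg over all genes tested). Of all 15550 genes tested, 14.5% differed (8.04% higher and 6.47% lower in DBL), against 29.2% of the 48. The median log2 fold change was 0.11 over the 48 and -0.003 over all genes. Leaving out DBL 3, DBL 4, ColGFP 2 or ColGFP 3 brought the count of 5 to 3, and leaving out ColGFP 1 brought it to 8. Leaving out ColGFP 2 or ColGFP 3 brought the count of 9 to 5. Fitted alone, the second series gave 14 genes higher and 15 lower, where 28.9% of all genes differed (16.3% higher and 12.6% lower).

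DBL and ColGFP both differed from TDonly in more of these genes. Between DBL and TDonly, 24 genes were higher in DBL and 5 lower, 60.4% of the 48 against 29.9% of all genes tested (17.3% higher and 12.6% lower). The median log2 fold change was 1.05, against -0.042 over all genes. With library totals in place of TMM factors the split was 21 higher and 8 lower, where 14.8% of all genes were higher and 15.8% lower. The median of all genes was then -0.13. Between TDonly and ColGFP, 9 genes were higher in TDonly and 24 lower, 68.8% of the 48 against 45.5% of all genes (21.6% higher and 24% lower). The median was -1.11, against 0.016 over all genes and 0.164 with library totals. Fitted alone, the second series gave 27 genes higher and 7 lower in DBL than in TDonly, where 43.1% of all genes differed (23.6% and 19.4%). In the same libraries 12 were higher and 27 lower in TDonly than in ColGFP, where 56.6% differed (26.8% and 29.8%). The 3 comparisons share their libraries, so their counts are not independent of each other.

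The libraries themselves can be counted without a test. All 3 DBL libraries were above all 3 ColGFP libraries for 10 of the 48 genes and below them for 18, where 33.3% of all genes were apart (16.9% above and 16.4% below). Against TDonly, DBL was apart above for 27 genes and below for 9, where 47% of all genes were apart (23.8% and 23.2%). TDonly was apart above ColGFP for 9 genes and below for 26, where 56.1% were apart (27.3% and 28.8%).

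Of the 48 genes, 3 were above both other populations in DBL by both tests, Rspo1, Sfrp2 and Wnt10b, and none was below both. Over all genes tested, 0.868% were above both and 0.206% below both. The calls of Rspo1 and Sfrp2 against ColGFP were each lost when any 1 DBL or ColGFP library was left out. The mean of DBL lay between the other means for 58.3% of the 48 genes and for 61% of all genes tested.

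**Figure D2:**
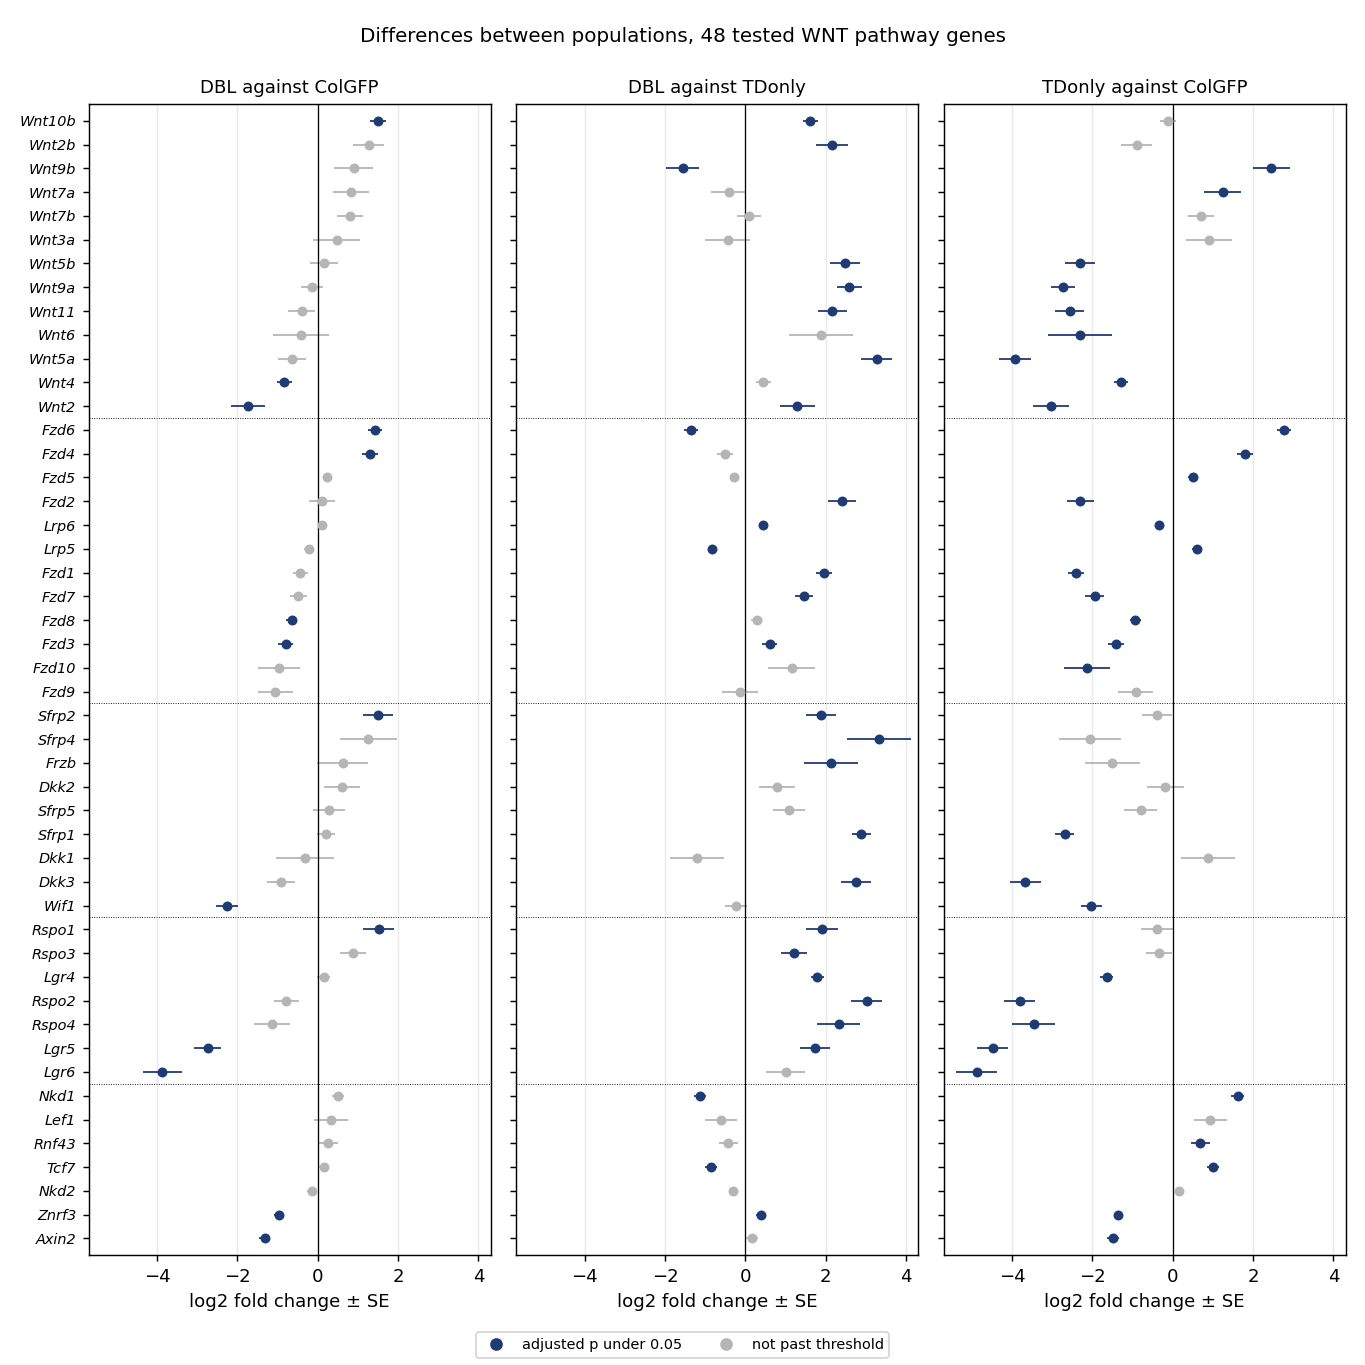
Log2 fold change with its standard error (SE) for the 48 tested genes in the 3 comparisons, grouped by role and ordered by the difference between DBL and ColGFP, with dark points for adjusted p under 0.05. Points for Lgr6 and Lgr5 lie farthest left in the DBL against ColGFP panel, at -3.87 and -2.74.

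Start sites of 37 of the 55 genes are in the RefSeq promoter table (GRCm38.p6), with 45 entries. The 250 bases before the start are shown for the 3 genes above both other populations in DBL. They are also shown for Axin2 and Lgr6, which were lower in DBL than in ColGFP. Fzd1, Wnt11 and Wnt5b are shown as genes with a TCF/LEF core that were lower in TDonly than in both other populations. Fzd7 also holds a core and was lower in TDonly than in both, and its stretch is not shown. The sequences run 5′ to 3′ on the strand of the gene. Capitals mark CTTTGA or CTTTGT, cores of the site bound by TCF and LEF. These and TGTTTA, a core of forkhead sites, were searched on both strands.
Rspo1: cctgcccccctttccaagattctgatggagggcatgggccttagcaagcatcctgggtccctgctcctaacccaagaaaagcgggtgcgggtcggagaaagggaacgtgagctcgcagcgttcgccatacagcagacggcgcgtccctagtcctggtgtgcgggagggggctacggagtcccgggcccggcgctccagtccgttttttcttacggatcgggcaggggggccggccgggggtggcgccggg
Sfrp2: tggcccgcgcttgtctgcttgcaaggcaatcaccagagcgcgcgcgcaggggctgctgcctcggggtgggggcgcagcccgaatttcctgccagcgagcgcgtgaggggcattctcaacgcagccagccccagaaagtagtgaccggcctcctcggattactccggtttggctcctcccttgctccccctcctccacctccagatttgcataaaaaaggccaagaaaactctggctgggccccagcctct
Wnt10b: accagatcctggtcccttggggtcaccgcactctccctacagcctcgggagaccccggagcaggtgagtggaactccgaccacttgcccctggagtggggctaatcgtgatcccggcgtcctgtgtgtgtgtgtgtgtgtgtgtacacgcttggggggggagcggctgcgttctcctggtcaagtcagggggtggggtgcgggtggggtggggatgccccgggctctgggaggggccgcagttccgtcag
Axin2: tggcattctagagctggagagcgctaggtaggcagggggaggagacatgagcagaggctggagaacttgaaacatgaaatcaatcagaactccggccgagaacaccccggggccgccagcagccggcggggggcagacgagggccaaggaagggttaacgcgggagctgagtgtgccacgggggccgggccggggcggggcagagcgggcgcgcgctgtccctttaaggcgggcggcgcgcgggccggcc
Lgr6: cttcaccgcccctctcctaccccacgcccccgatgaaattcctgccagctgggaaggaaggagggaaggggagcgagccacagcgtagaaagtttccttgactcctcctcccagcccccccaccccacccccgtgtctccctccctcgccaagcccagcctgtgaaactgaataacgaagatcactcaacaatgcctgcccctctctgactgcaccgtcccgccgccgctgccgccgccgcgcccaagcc
Fzd1: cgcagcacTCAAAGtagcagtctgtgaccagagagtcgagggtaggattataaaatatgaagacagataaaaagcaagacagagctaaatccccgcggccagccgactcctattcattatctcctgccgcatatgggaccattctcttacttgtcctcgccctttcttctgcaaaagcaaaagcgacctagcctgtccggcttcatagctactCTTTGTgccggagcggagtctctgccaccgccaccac
Wnt11: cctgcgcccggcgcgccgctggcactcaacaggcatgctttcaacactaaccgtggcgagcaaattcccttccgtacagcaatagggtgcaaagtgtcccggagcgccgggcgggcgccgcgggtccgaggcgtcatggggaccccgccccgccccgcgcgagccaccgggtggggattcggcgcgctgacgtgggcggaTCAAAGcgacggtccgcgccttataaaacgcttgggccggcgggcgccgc
Wnt5b: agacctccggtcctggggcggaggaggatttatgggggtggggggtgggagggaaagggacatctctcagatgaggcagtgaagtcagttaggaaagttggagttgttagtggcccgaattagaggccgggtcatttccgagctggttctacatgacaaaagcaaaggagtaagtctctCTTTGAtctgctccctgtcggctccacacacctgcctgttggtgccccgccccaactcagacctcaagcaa
On GRCm38.p6 these stretches lie at chr4:124986180-124986429 for Rspo1, chr3:83766071-83766320 for Sfrp2, chr15:98778151-98778400 for Wnt10b, chr11:108920099-108920348 for Axin2 and chr1:135105277-135105526 for Lgr6. The others lie at chr5:4758217-4758466 for Fzd1, chr7:98834862-98835111 for Wnt11 and chr6:119449387-119449636 for Wnt5b, of whose start sites those with a core are shown. The other start sites of Wnt11 and Wnt5b hold no core. The Wnt5b start shown lies inside its gene model (119432531 to 119544347, minus strand). For Fzd1 the start used here lies outside the gene positions given below, which come from another annotation. In Fzd1 the table gives CTTTGA at 242 bases before the start, on the opposite strand, and CTTTGT at 37 bases before it, on the strand of the gene. In Wnt11 CTTTGA stands 50 bases before the start, on the opposite strand, and in Wnt5b 71 bases before it, on the strand of the gene. The 250 bases before the start were searched in every entry. A CTTTGA or CTTTGT core was in 9 of the 45 entries of these genes and in 27.6% of the 32851 entries of the table. TGTTTA was in 2 of the 45 entries, those of Rspo4 and Wif1, and in 12% of the table. None of these letters stand in the stretches shown for Rspo1, Sfrp2, Wnt10b, Axin2 and Lgr6. The median GC content of these 250 bases was 65.2% over the 45 entries, against 52.4% over the table. A match of letters is a description and not a binding site.

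Wnt5a, Wnt9a, Wnt11 and Wnt5b were lower in TDonly than in both other populations, Wnt2 and Wnt4 were highest in ColGFP, and Wnt10b was highest in DBL. Per kilobase of exon, ligand transcripts summed to 71.3 ± 13.9 CPM per kb in DBL, 91.8 ± 2.83 in ColGFP and 18.7 ± 6.20 in TDonly (mean ± SD, n = 3 for each such value). Of the 13 tested ligands, 1 was higher and 2 lower in DBL than in ColGFP, 7 higher and 1 lower in DBL than in TDonly, and 2 higher and 7 lower in TDonly than in ColGFP. The counts of this and every other role, of the marker lists and of the further pathway genes below are to be read beside the shares of all genes. These were 8.04% higher and 6.47% lower, 17.3% and 12.6%, and 21.6% and 24% in the 3 comparisons, in that order. The value after the ± sign of a log2 fold change is its SE.

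Wnt5a (chromosome 14, 28504750 to 28527448, plus strand, GRCm38), the best known ligand of signalling without beta-catenin, measured 119, 155 and 158 CPM in DBL, 245, 204 and 229 in ColGFP and 5.96, 17.5 and 21.4 in TDonly. TDonly was far below both others, with TDonly 1 lowest, and DBL lay below ColGFP with no overlap. DBL was higher than TDonly (log2 fold change 3.27 ± 0.38, adjusted p = 0.000277) and TDonly lower than ColGFP (-3.92 ± 0.40, adjusted p = 3.61e-05). DBL against ColGFP stood at -0.65 ± 0.35, adjusted p = 0.278, and passed within the second series (-0.46, adjusted p = 0.000729), without TDonly 1 (adjusted p = 0.00873) and with the 2 populations fitted alone (adjusted p = 0.0181). Wnt5a held 26.01 ± 1.37% of the ligand transcripts per kilobase in DBL, 31.5 ± 1.93% in ColGFP and 9.63 ± 2.76% in TDonly.

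Wnt2 (chromosome 6, 17988940 to 18030585, minus strand), a beta-catenin ligand that lung formation needs together with Wnt2b, measured 14.03, 20.1 and 17.9 CPM in DBL, 73.03, 49.8 and 49.5 in ColGFP and 2.22, 9.05 and 9.98 in TDonly. The 3 populations did not overlap, with ColGFP highest and DBL between. It was lower in DBL than in ColGFP (log2 fold change -1.73 ± 0.42, adjusted p = 0.0235), a call lost without DBL 1, DBL 3, DBL 4, ColGFP 1, ColGFP 2 or ColGFP 3 (adjusted p 0.0524 to 0.0814). It was higher in DBL than in TDonly (1.29 ± 0.43, adjusted p = 0.0497), a call lost without DBL 1, DBL 3, DBL 4, ColGFP 2, ColGFP 3 or TDonly 2 (adjusted p 0.0546 to 0.134) and with DESeq2 size factors (adjusted p = 0.0537), library totals (0.0824) and the 2 populations fitted alone (0.0967). TDonly was lower than ColGFP (-3.02 ± 0.45, adjusted p = 0.000438). Within the second series the 3 differences were -1.37 (adjusted p = 2.97e-08), 1.04 (adjusted p = 1.69e-06) and -2.41 (adjusted p = 8.46e-12).

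Wnt2b (chromosome 3, 104945272 to 104961921, minus strand) had another order, at 55.6, 78.9 and 81.6 CPM in DBL, 12.8, 39.6 and 37.5 in ColGFP and 11.1, 17.4 and 19.7 in TDonly. DBL was highest and overlapped neither population. It was higher than TDonly (log2 fold change 2.17 ± 0.39, adjusted p = 0.00256). Against ColGFP the difference was 1.27 ± 0.38, adjusted p = 0.0559, and it passed within the second series (1.07, adjusted p = 7.16e-08), without ColGFP 1 or TDonly 1 (adjusted p = 0.0373 each) and with library totals (adjusted p = 0.0427), DESeq2 (0.00796), no filter (0.0499) and the series as a covariate (0.000823). TDonly against ColGFP, at -0.90 ± 0.39, adjusted p = 0.0847, passed within the second series (-1.08, adjusted p = 4.68e-08), without ColGFP 1 (adjusted p = 0.00236) and with DESeq2 (adjusted p = 0.0449) and the series as a covariate (0.00656). ColGFP 1 lay among the TDonly libraries, at 12.8 CPM.

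Wnt9a, a ligand of joint development, measured 25.4, 39.5 and 44.5 CPM in DBL, 36.6, 41.9 and 41.7 in ColGFP and 3.43, 7.85 and 6.86 in TDonly. Wnt11, which acts on cell polarity and movement, measured 15.6, 24.96 and 29.5 CPM in DBL, 26.2, 29.9 and 36.4 in ColGFP and 2.53, 6.37 and 6.73 in TDonly. Wnt5b, a close relative of Wnt5a, measured 6.90, 10.3 and 8.16 CPM in DBL, 5.99, 8.05 and 8.69 in ColGFP and 0.624, 1.96 and 1.98 in TDonly. For each of these 3 ligands DBL and ColGFP overlapped, TDonly was below both, and TDonly 1 was the lowest library. The log2 fold change of DBL against TDonly was 2.59 ± 0.30, adjusted p = 0.000256 for Wnt9a, 2.17 ± 0.36, adjusted p = 0.00146 for Wnt11 and 2.47 ± 0.38, adjusted p = 0.000965 for Wnt5b. For TDonly against ColGFP it was -2.73 ± 0.30, adjusted p = 6.33e-05 for Wnt9a, -2.57 ± 0.36, adjusted p = 0.000289 for Wnt11 and -2.32 ± 0.38, adjusted p = 0.000756 for Wnt5b. DBL against ColGFP stood at -0.14 ± 0.28, -0.40 ± 0.33 and 0.16 ± 0.34, none past the threshold. Of the exon length of Wnt11, 8.80% is shared with the gene model Gm8398, and the strand setting of the counting is not given, so reads of overlapping genes cannot be told apart.

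Wnt4, a ligand of kidney and lung development, measured 8.92, 12.9 and 11.3 CPM in DBL, 15.5, 21.7 and 21.6 in ColGFP and 7.72, 8.25 and 8.18 in TDonly. ColGFP overlapped neither other population. DBL was lower than ColGFP (log2 fold change -0.83 ± 0.18, adjusted p = 0.0116), a call lost without ColGFP 2 or ColGFP 3 (adjusted p 0.0504 to 0.0507). TDonly was lower than ColGFP as well (-1.28 ± 0.18, adjusted p = 0.000273). DBL against TDonly, at 0.45 ± 0.18, adjusted p = 0.0842, passed within the second series (0.60, adjusted p = 0.00255), without DBL 1 or ColGFP 1 (adjusted p 0.0275 to 0.0340) and with the series as a covariate (adjusted p = 0.0232). Wnt10b, which favours bone over fat in mesenchymal progenitors, measured 7.21, 8.20 and 9.89 CPM in DBL, 2.55, 3.33 and 3.10 in ColGFP and 2.57, 2.68 and 2.99 in TDonly. Every DBL library was above every other library, by 1.498 ± 0.19, adjusted p = 0.000737 against ColGFP and 1.62 ± 0.19, adjusted p = 0.000275 against TDonly. Neither call was lost when any 1 library was left out.

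Wnt9b, Wnt7a and Wnt6 were at low levels. Wnt9b, known from kidney and epithelium, measured 0.534, 0.270 and 0.323 CPM in DBL, 0.179, 0.302 and 0.139 in ColGFP and 1.09, 1.36 and 0.923 in TDonly. TDonly was above the others with no overlap, and higher than ColGFP (log2 fold change 2.45 ± 0.46, adjusted p = 0.00179). DBL was lower than TDonly (-1.56 ± 0.41, adjusted p = 0.0177), a call lost without DBL 3, DBL 4 or TDonly 2 (adjusted p 0.0717 to 0.0848). Wnt7a was higher in TDonly than in ColGFP (1.24 ± 0.45, adjusted p = 0.0489), a call lost without DBL 1, DBL 3, DBL 4, ColGFP 2, ColGFP 3, TDonly 2 or TDonly 3 (adjusted p 0.0532 to 0.136) and with DESeq2 size factors (adjusted p = 0.0503), no filter (0.0588), the 2 populations fitted alone (0.0826) and the series as a covariate (0.0512). Without ColGFP 1 its value was 1.89, and that of DBL against ColGFP, 0.83 ± 0.46 over all libraries, then passed at 1.52. Wnt6, at most 1.94 CPM, was lower in TDonly than in ColGFP (-2.31 ± 0.80, adjusted p = 0.0390), a call lost without ColGFP 2, ColGFP 3, TDonly 1 or TDonly 2 (adjusted p 0.0681 to 0.113) and with library totals (adjusted p = 0.0514). Without TDonly 3 it was -3.42, and DBL against TDonly, 1.89 ± 0.80 over all libraries, then passed at 3.01.

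Wnt3a and Wnt7b, ligands known from epithelium and neural tissue, passed in no comparison over all libraries. Wnt3a measured 4.20 CPM in ColGFP 1 and 0.968 and 0.878 in the other ColGFP libraries. Without ColGFP 1 it was higher than in ColGFP both in TDonly (log2 fold change 2.03, adjusted p = 0.00457) and in DBL (1.63, adjusted p = 0.0356). Wnt7b passed as higher in TDonly than in ColGFP without TDonly 1 (adjusted p = 0.0341). Summed epithelial markers were 10176 CPM in ColGFP 1, 5139 in ColGFP 2, 3464 in ColGFP 3 and 9665 to 12884 in TDonly. Of these 12 markers, 0 passed between DBL and ColGFP. In DBL 1 was lower than in TDonly, and in TDonly 8 were higher than in ColGFP. Among ColGFP libraries, ColGFP 1 also had the highest leukocyte, smooth muscle and endothelial sums (2425, 6306 and 1109 CPM). Its alveolar and adventitial fibroblast sums were the lowest (16391 and 1557 CPM). The part of these markers in the result was not tested.

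Fzd1, Fzd2 and Fzd7 were lower in TDonly than in both other populations, and Fzd4, Fzd5, Fzd6 and Lrp5 were higher in TDonly than in ColGFP. Of the 12 receptors, 2 were higher and 2 lower in DBL than in ColGFP, 5 higher and 2 lower in DBL than in TDonly, and 4 higher and 7 lower in TDonly than in ColGFP. FZD transcripts summed to 135 ± 9.53 CPM per kb in DBL, 137 ± 16.4 in ColGFP and 103 ± 5.80 in TDonly.

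Fzd1 (chromosome 5, 4753839 to 4758035, minus strand), which binds beta-catenin ligands and whose promoter stretch holds both TCF/LEF cores, measured 145, 145 and 159.9 CPM in DBL, 175, 226 and 208 in ColGFP and 26.3, 47.6 and 41.1 in TDonly. It was higher in DBL than in TDonly (log2 fold change 1.97 ± 0.20, adjusted p = 0.000141) and lower in TDonly than in ColGFP (-2.40 ± 0.20, adjusted p = 1.23e-05). DBL against ColGFP stood at -0.44 ± 0.19, adjusted p = 0.182, with DBL below and no overlap. It passed within the second series (-0.49, adjusted p = 0.000186), without TDonly 1 (adjusted p = 0.0278) and with the 2 populations fitted alone (adjusted p = 0.0467). Fzd7, a relative of Fzd1 and Fzd2, measured 89.6, 122 and 131 CPM in DBL, 147, 178 and 153 in ColGFP and 27.6, 51.2 and 45.4 in TDonly. The gene was higher in DBL than in TDonly (1.46 ± 0.23, adjusted p = 0.00103) and lower in TDonly than in ColGFP (-1.95 ± 0.23, adjusted p = 9.34e-05). Against ColGFP DBL was at -0.48 ± 0.22, adjusted p = 0.197, past the threshold within the second series (-0.37, adjusted p = 0.00351) and with the series as a covariate (adjusted p = 0.0223). Fzd2, a receptor of Wnt5a, measured 56.3, 67.7 and 84.7 CPM in DBL, 48.03, 75.1 and 70.6 in ColGFP and 6.35, 16.4 and 16.6 in TDonly, and its DBL and ColGFP libraries overlapped. TDonly was below both (2.41 ± 0.34, adjusted p = 0.000701 for DBL against TDonly and -2.30 ± 0.34, adjusted p = 0.000437 for TDonly against ColGFP).

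Fzd4 (chromosome 7, 89404355 to 89413134, plus strand), the vascular receptor of norrin and of WNT ligands, measured 224, 185 and 188 CPM in DBL, 64.4, 93.2 and 84.5 in ColGFP and 368, 245 and 232 in TDonly. The 3 populations did not overlap, with TDonly highest and TDonly 1 highest of all. Its level was higher in DBL than in ColGFP (log2 fold change 1.30 ± 0.20, adjusted p = 0.00220). TDonly was higher than ColGFP as well (1.80 ± 0.20, adjusted p = 7.00e-05). DBL against TDonly, at -0.50 ± 0.20, adjusted p = 0.0839, passed within the second series (-0.31, adjusted p = 0.00222) and with library totals (adjusted p = 0.0274). Fzd4 held 22.04 ± 3.80% of FZD transcript per kilobase in DBL, 8.71 ± 0.628% in ColGFP and 40.5 ± 8.59% in TDonly.

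Fzd6 (chromosome 15, 39006034 to 39038188, plus strand), a receptor of planar cell polarity, measured 40.2, 42.3 and 39.01 CPM in DBL, 19.9, 13.7 and 11.7 in ColGFP and 108, 101 and 101 in TDonly. Its 3 populations were apart with little spread, and all 3 differences passed: 1.42 ± 0.17, adjusted p = 0.000506 for DBL against ColGFP, -1.35 ± 0.17, adjusted p = 0.000323 for DBL against TDonly and 2.77 ± 0.18, adjusted p = 2.21e-06 for TDonly against ColGFP. Its share of FZD transcript per kilobase was 6.24 ± 0.576% in DBL, 2.35 ± 0.948% in ColGFP and 20.9 ± 0.722% in TDonly. All 10 endothelial markers stood in the same order as Fzd4 and Fzd6, each higher in DBL than in ColGFP and lower than in TDonly. Their sums were 4138 to 5198 CPM in DBL, 726 to 1109 in ColGFP and 12302 to 13314 in TDonly, and their part in the result was not tested.

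**Figure D3:**
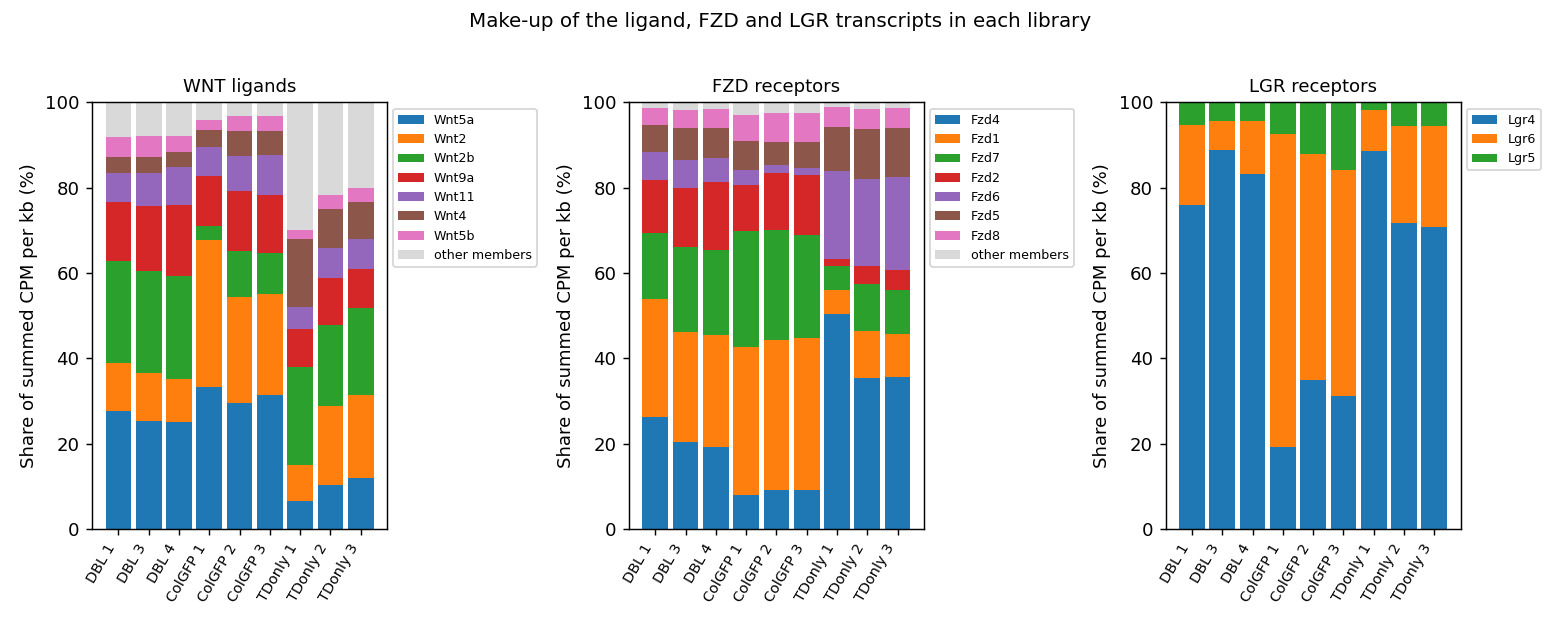
Share of the summed CPM per kilobase of exon held by each gene in each library, for WNT ligands, FZD receptors and LGR receptors. Fzd4 and Fzd6 fill most of the TDonly bars of the middle panel, Fzd1 and Fzd7 most of the ColGFP bars, and Lgr6 most of the ColGFP bars of the right panel.

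Fzd3 and Fzd8 were highest in ColGFP. Fzd3, which acts in axon guidance and polarity, measured 16.1, 25.1 and 21.3 CPM in DBL, 34.4, 38.5 and 36.04 in ColGFP and 10.4, 16.3 and 14.3 in TDonly. It was lower in DBL than in ColGFP (log2 fold change -0.80 ± 0.19, adjusted p = 0.0209), a call lost without DBL 1, DBL 4, ColGFP 2 or ColGFP 3 (adjusted p 0.0604 to 0.0758). DBL was higher than TDonly (0.61 ± 0.19, adjusted p = 0.0407) although their libraries overlapped, a call lost without DBL 3, DBL 4, ColGFP 2, ColGFP 3, TDonly 1 or TDonly 3 (adjusted p 0.0560 to 0.147) and with library totals (adjusted p = 0.0933) and the 2 populations fitted alone (0.0861). TDonly was lower than ColGFP (-1.41 ± 0.20, adjusted p = 0.000273). Fzd8, a receptor of beta-catenin ligands, measured 30.3, 33.9 and 39.4 CPM in DBL, 43.8, 61.8 and 57.2 in ColGFP and 30.2, 27.96 and 27.2 in TDonly. The gene was lower in DBL than in ColGFP (-0.65 ± 0.14, adjusted p = 0.0143), a call lost without DBL 1, DBL 3, ColGFP 2 or ColGFP 3 (adjusted p 0.0522 to 0.0560), and TDonly was lower than ColGFP too (-0.93 ± 0.14, adjusted p = 0.000565). DBL against TDonly, at 0.28 ± 0.14, adjusted p = 0.177, passed within the second series (0.45, adjusted p = 0.00138) and without ColGFP 1 (adjusted p = 0.0482).

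Fzd5, a receptor of epithelium and vessels, measured 56.1, 70.97 and 70.8 CPM in DBL, 55.7, 55.8 and 57.98 in ColGFP and 77.6, 83.5 and 77.4 in TDonly and was higher in TDonly than in ColGFP (log2 fold change 0.49 ± 0.10, adjusted p = 0.00355). DBL against ColGFP, at 0.22 ± 0.10, adjusted p = 0.205, passed within the second series (0.33, adjusted p = 0.00541) and without DBL 1 (adjusted p = 0.0444). DBL against TDonly, at -0.27 ± 0.10, adjusted p = 0.0783, passed with library totals (adjusted p = 0.0324) and the series as a covariate (0.0331). Of its exon length 17.8% is shared with the gene model Gm38058. Fzd10, at most 1.30 CPM, was lower in TDonly than in ColGFP (-2.13 ± 0.58, adjusted p = 0.0134) but not within the second series (-1.63, adjusted p = 0.0689), and Fzd9, at most 1.57 CPM, passed in no comparison.

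Of the co-receptors, Lrp6 measured 329, 394 and 382 CPM in DBL, 298, 369 and 358 in ColGFP and 272, 272 and 268 in TDonly. Its mean in CPM was the highest of the 12 receptors in DBL and in ColGFP, while in TDonly those of Lrp5 and Fzd4 were above it. Lrp6 was higher in DBL than in TDonly (log2 fold change 0.44 ± 0.11, adjusted p = 0.0146), a call lost without DBL 3 or TDonly 3 (adjusted p 0.0514 to 0.0564). TDonly was lower than ColGFP (-0.34 ± 0.11, adjusted p = 0.0342), a call lost without ColGFP 2, ColGFP 3, TDonly 1, TDonly 2 or TDonly 3 (adjusted p 0.0581 to 0.0955) and with library totals (adjusted p = 0.182). Lrp5, the co-receptor that vessels of the eye need together with Fzd4, measured 194, 173 and 193 CPM in DBL, 231, 208 and 219 in ColGFP and 371, 318 and 303 in TDonly. TDonly was above both others (-0.82 ± 0.11, adjusted p = 0.000406 for DBL against TDonly and 0.59 ± 0.11, adjusted p = 0.00129 for TDonly against ColGFP). DBL against ColGFP stood at -0.23 ± 0.10, adjusted p = 0.200, past the threshold within the second series (-0.20, adjusted p = 0.0494).

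Among secreted antagonists, Dkk3 and Sfrp1 were lower in TDonly than in both other populations, Sfrp2 was highest in DBL, and Wif1 was highest in ColGFP. Of 9 tested, 1 was higher and 1 lower in DBL than in ColGFP, 5 higher and 0 lower in DBL than in TDonly, and 0 higher and 3 lower in TDonly than in ColGFP. The last count is 33.3% of the 9, under the 45.5% of all genes. Per kilobase they summed to 141 ± 5.83 CPM per kb in DBL, 185 ± 24.3 in ColGFP and 24.6 ± 9.93 in TDonly. Dkk3 alone held 51.06 ± 9.11% of this sum in DBL, 73.2 ± 1.64% in ColGFP and 41.45 ± 7.13% in TDonly. Like the sum, the means of Dkk3, Wif1, Dkk1 and Dkk4 were lower in DBL than in ColGFP. Those of Sfrp1, Sfrp2, Sfrp4, Sfrp5, Frzb and Dkk2 were higher in DBL, so the order of the sums does not hold for most antagonists.

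Dkk3 (chromosome 7, 112116017 to 112159057, minus strand), a dickkopf protein whose effect on WNT signalling varies with the tissue, measured 199, 254 and 269 CPM in DBL, 395, 477 and 492 in ColGFP and 14.7, 45.5 and 47.1 in TDonly. The populations did not overlap, with ColGFP highest. The gene was higher in DBL than in TDonly (log2 fold change 2.75 ± 0.38, adjusted p = 0.000559), and TDonly lower than ColGFP (-3.67 ± 0.39, adjusted p = 5.11e-05). DBL against ColGFP stood at -0.92 ± 0.35, adjusted p = 0.127, and passed within the second series (-0.87, adjusted p = 2.23e-08), without TDonly 1 (adjusted p = 0.00129) and with the 2 populations fitted alone (adjusted p = 0.00519) and the series as a covariate (0.0215). Sfrp1 (chromosome 8, 23411502 to 23449632, plus strand), a secreted protein with an FZD-like domain that binds WNT, measured 224, 126 and 136 CPM in DBL, 116, 156 and 152 in ColGFP and 18.4, 24.3 and 22.99 in TDonly. It was higher in DBL than in TDonly (2.89 ± 0.24, adjusted p = 7.04e-05) and lower in TDonly than in ColGFP (-2.69 ± 0.24, adjusted p = 1.60e-05). DBL and ColGFP overlapped, with DBL 1 the highest library: their difference was 0.20 ± 0.22, adjusted p = 0.637 over all libraries and of the other sign within the second series (-0.22, adjusted p = 0.0414).

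Sfrp2 (chromosome 3, 83766321 to 83774316, plus strand), a paralog of Sfrp1 known from fibroblasts, measured 50.8, 45.9 and 44.5 CPM in DBL, 14.8, 20.4 and 15.02 in ColGFP and 4.87, 17.7 and 15.5 in TDonly. Every DBL library was above every other library. Its level was higher in DBL than in ColGFP (log2 fold change 1.49 ± 0.37, adjusted p = 0.0256), a call lost without DBL 1, DBL 3, DBL 4, ColGFP 1, ColGFP 2 or ColGFP 3 (adjusted p 0.0559 to 0.0997) and present within the second series (1.38, adjusted p = 2.43e-07). DBL was higher than TDonly as well (1.89 ± 0.38, adjusted p = 0.00432). Of its exon length 16.1% is shared with the gene model Gm26771. Sfrp4, another paralog, was higher in DBL than in TDonly (3.33 ± 0.79, adjusted p = 0.0109). It measured 35.3, 25.01 and 29.6 CPM in DBL, and in ColGFP 1.12 in ColGFP 1 and 19.5 and 17.1 in the others. Every DBL library was above every ColGFP library. DBL against ColGFP, at 1.26 ± 0.72, adjusted p = 0.3085, passed within the second series (0.59, adjusted p = 0.00201). TDonly against ColGFP, at -2.07 ± 0.78, adjusted p = 0.0542, passed within the second series (-2.29, adjusted p = 7.81e-10), without ColGFP 1 (adjusted p = 0.000366) and with DESeq2 (adjusted p = 0.0456), no filter (0.0493) and the series as a covariate (0.0432). Markers of adventitial fibroblasts, 10 genes, summed to 6595 to 8535 CPM in DBL and 1405 to 1698 in TDonly. In ColGFP 1, ColGFP 2 and ColGFP 3 the sums were 1557, 4577 and 4426. Of the 10 markers, 3 were higher and 0 lower in DBL than in ColGFP, and 8 higher and 1 lower in DBL than in TDonly. Between TDonly and ColGFP, 2 were higher in TDonly (Dpp4 and Ly6a) and 7 lower. Ly6a alone measured 1022 CPM in TDonly 1. The part of these markers in these results was not tested.

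Wif1 (chromosome 10, 121033960 to 121100650, plus strand), an antagonist that binds WNT directly, measured 1.75, 2.79 and 3.07 CPM in DBL, 11.2, 11.1 and 13.9 in ColGFP and 2.03, 3.36 and 3.52 in TDonly. ColGFP was above both others with no overlap, by a log2 fold change of -2.25 ± 0.27, adjusted p = 0.000556 for DBL against ColGFP and -2.02 ± 0.27, adjusted p = 0.000208 for TDonly against ColGFP. Neither call was lost when any 1 library was left out. DBL and TDonly overlapped, at -0.23 ± 0.27, adjusted p = 0.571. Frzb, another antagonist with an FZD-like domain, was higher in DBL than in TDonly (2.13 ± 0.68, adjusted p = 0.0401). DBL 1 held 4.92 CPM against 1.49 and 1.57 in the other DBL libraries, and without it the difference was 1.32. The call was lost without DBL 1, ColGFP 2, ColGFP 3, TDonly 1 or TDonly 2 (adjusted p 0.0517 to 0.152), with the 2 populations fitted alone (adjusted p = 0.0527) and within the second series (1.30, adjusted p = 0.0530), and without TDonly 3 the value was 2.74. Dkk1, Dkk2 and Sfrp5, at most 2.67 CPM in any library, passed in no comparison over all libraries. Sfrp5 passed as higher in DBL than in TDonly without DBL 1 (adjusted p = 0.0159).

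Rspo1 was higher in DBL than in both other populations, while Lgr5 and Lgr6, receptors of R-spondins, had their highest levels in ColGFP. Of these 7 genes, 1 was higher and 2 lower in DBL than in ColGFP, 6 higher and 0 lower in DBL than in TDonly, and 0 higher and 5 lower in TDonly than in ColGFP. R-spondin transcripts summed to 16.9 ± 2.59 CPM per kb in DBL, 7.78 ± 1.79 in ColGFP and 4.61 ± 2.06 in TDonly. LGR transcripts summed to 5.87 ± 0.914, 16.6 ± 5.40 and 1.84 ± 0.218 CPM per kb.

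Rspo1 (chromosome 4, 124986430 to 125009099, plus strand) measured 34.4, 25.8 and 26.3 CPM in DBL, 5.68, 13.4 and 11.3 in ColGFP and 3.59, 10.1 and 9.50 in TDonly. Every DBL library was above every other library, and within ColGFP and TDonly replicate 1 was lowest. Its level was higher in DBL than in ColGFP (log2 fold change 1.51 ± 0.39, adjusted p = 0.0306), a call lost without DBL 1, DBL 3, DBL 4, ColGFP 1, ColGFP 2 or ColGFP 3 (adjusted p 0.0503 to 0.0900) and present within the second series (1.097, adjusted p = 4.18e-06). It was higher in DBL than in TDonly (1.90 ± 0.40, adjusted p = 0.00564). TDonly against ColGFP, at -0.38 ± 0.40, adjusted p = 0.459, passed within the second series (-0.35, adjusted p = 0.0411). Rspo1 held 87.9 ± 1.48% of R-spondin transcript per kilobase in DBL, 65.3 ± 13.8% in ColGFP and 85.8 ± 3.29% in TDonly. Of 8 mesothelial markers, 6 were higher in DBL than in ColGFP and 7 higher than in TDonly, and none lower. Their sums were 689 to 795 CPM in DBL, 239 to 307 in ColGFP and 104 to 353 in TDonly. The sums of adventitial fibroblast markers were highest in DBL too, at 6595 to 8535 CPM. So were those of 8 pericyte markers, at 741 to 864 CPM in DBL, 642 to 715 in ColGFP and 175 to 308 in TDonly. Of these 8, 1 was higher and 1 lower in DBL than in ColGFP, and 5 higher and 0 lower than in TDonly. The part of these 3 marker lists in the result was not tested.

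The other R-spondins were at a few CPM. Rspo2, which the developing lung needs for its branches, measured 1.68, 2.07 and 1.70 CPM in DBL, 2.59, 3.57 and 3.23 in ColGFP and 0.117, 0.360 and 0.176 in TDonly. It was higher in DBL than in TDonly (log2 fold change 3.03 ± 0.39, adjusted p = 0.000415) and lower in TDonly than in ColGFP (-3.81 ± 0.39, adjusted p = 3.86e-05). Rspo4, known from nail development, measured 1.68, 1.40 and 1.33 CPM in DBL, 4.92, 2.66 and 2.13 in ColGFP and 0.0779, 0.360 and 0.440 in TDonly. It too was higher in DBL than in TDonly (2.33 ± 0.53, adjusted p = 0.00900) and lower in TDonly than in ColGFP (-3.46 ± 0.53, adjusted p = 0.000512, and -2.59, adjusted p = 0.000111 within the second series). In TDonly the libraries held 3 to 9 counts of Rspo2 and 2 to 10 of Rspo4. Rspo3, which acts on vessels, was higher in DBL than in TDonly (1.22 ± 0.32, adjusted p = 0.0169), a call lost without DBL 3, TDonly 1 or TDonly 2 (adjusted p 0.0507 to 0.0620). Of its exon length 13.1% is shared with the gene model Gm48159.

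Lgr6 (chromosome 1, 134983301 to 135105276, minus strand), an R-spondin receptor of smooth muscle and of progenitor cells, measured 6.21, 3.02 and 5.25 CPM in DBL, 114, 45.8 and 52.3 in ColGFP and 1.09, 3.24 and 2.90 in TDonly. ColGFP was above every other library, ColGFP 1 highest, and DBL and TDonly overlapped. The mean of DBL was 6.82% of the ColGFP mean (log2 fold change -3.87 ± 0.47, adjusted p = 0.000592, with -3.54, adjusted p = 8.61e-11 in the second series), and that of TDonly 3.41% (-4.88 ± 0.51, adjusted p = 4.34e-05, and -4.02, adjusted p = 4.46e-12 within the second series). Markers of smooth muscle and myofibroblasts, 10 genes, summed to 6306 CPM in ColGFP 1, 3759 in ColGFP 2 and 4278 in ColGFP 3. The sums were 1163 to 1392 in DBL and 367 to 480.2 in TDonly. Hhip alone measured 2944, 1747 and 2134 CPM in ColGFP and 109 to 168 in DBL. Of the 10 markers, 5 were lower in DBL than in ColGFP and 5 did not pass. All 10 were lower in TDonly than in ColGFP. The part of these markers in the result was not tested.

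Lgr5 (chromosome 10, 115450311 to 115587780, minus strand), a receptor known from stem cells of the gut and found in lung mesenchyme, measured 2.67, 2.97 and 2.83 CPM in DBL, 17.3, 15.7 and 23.6 in ColGFP and 0.312, 1.20 and 1.01 in TDonly. The 3 populations did not overlap and all 3 differences passed: log2 fold change -2.74 ± 0.33, adjusted p = 0.000576 for DBL against ColGFP, 1.75 ± 0.37, adjusted p = 0.00629 for DBL against TDonly and -4.49 ± 0.38, adjusted p = 1.19e-05 for TDonly against ColGFP. Lgr4, the receptor of the family with the widest expression, measured 21.6, 34.2 and 30.6 CPM in DBL, 25.7, 25.95 and 26.4 in ColGFP and 8.61, 8.77 and 7.47 in TDonly. DBL and ColGFP overlapped. TDonly was below both (1.80 ± 0.17, adjusted p = 9.68e-05 for DBL against TDonly and -1.65 ± 0.17, adjusted p = 3.68e-05 for TDonly against ColGFP). DBL against ColGFP, at 0.15 ± 0.16, adjusted p = 0.627, passed within the second series (0.32, adjusted p = 0.0479). Of LGR transcript per kilobase, Lgr6 held 59.8 ± 11.8% in ColGFP, and Lgr4 held 82.7 ± 6.52% in DBL and 77.01 ± 9.99% in TDonly.

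Of the feedback genes and nuclear factors, Axin2 and Znrf3 were highest in ColGFP, and Nkd1 and Tcf7 in TDonly. Of these 7 genes, 0 were higher and 2 lower in DBL than in ColGFP, 1 higher and 2 lower in DBL than in TDonly, and 3 higher and 2 lower in TDonly than in ColGFP. Axin2 (chromosome 11, 108920349 to 108950783, plus strand), a scaffold of the beta-catenin destruction complex and a target of the pathway, measured 40.6, 44.8 and 48.2 CPM in DBL, 97.6, 112 and 125 in ColGFP and 31.8, 42.5 and 44.4 in TDonly. ColGFP was above every other library, and DBL and TDonly overlapped. DBL was lower than ColGFP (log2 fold change -1.32 ± 0.15, adjusted p = 0.000323), and so was TDonly (-1.50 ± 0.15, adjusted p = 3.12e-05). Znrf3 (chromosome 11, 5276324 to 5444847, minus strand), the ligase that clears FZD, measured 39.7, 48.98 and 47.3 CPM in DBL, 87.9, 86.99 and 90.2 in ColGFP and 29.7, 38.2 and 35.7 in TDonly. It was lower in DBL than in ColGFP (-0.96 ± 0.12, adjusted p = 0.000547) and TDonly lower still (-1.36 ± 0.12, adjusted p = 1.43e-05 against ColGFP). The difference between DBL and TDonly (0.39 ± 0.12, adjusted p = 0.0297) was lost without DBL 3, DBL 4, TDonly 1 or TDonly 3 (adjusted p 0.0622 to 0.103) and with library totals (adjusted p = 0.123) and the 2 populations fitted alone (0.0695). Summed alveolar fibroblast markers, 10 genes, were 16391 to 17747 CPM in ColGFP, 4965 to 6062 in DBL and 2336 to 3644 in TDonly. Macf1 alone measured 8511 to 9936, 2807 to 3205 and 1789 to 2319 CPM. Of the 10 markers, 8 were lower in DBL than in ColGFP, 8 higher in DBL than in TDonly and 9 lower in TDonly than in ColGFP. None passed in the other direction. The part of these markers in these results was not tested.

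Nkd1 (chromosome 8, 88521354 to 88594884, plus strand), an inhibitor of Dishevelled that WNT signalling induces, measured 129.9, 125 and 131 CPM in DBL, 117, 81.5 and 74.4 in ColGFP and 278, 287 and 274 in TDonly. TDonly was above every other library. DBL was lower than TDonly (log2 fold change -1.12 ± 0.15, adjusted p = 0.000565), and TDonly higher than ColGFP (1.62 ± 0.16, adjusted p = 2.78e-05). DBL against ColGFP stood at 0.50 ± 0.15, adjusted p = 0.0611. It passed within the second series (0.73, adjusted p = 7.96e-07), without ColGFP 1 (adjusted p = 0.000799) and with DESeq2 (adjusted p = 0.0245), a filter of 1 CPM (0.0365) and the series as a covariate (0.0204). Tcf7 (chromosome 11, 52252371 to 52283014, minus strand), a DNA-binding partner of beta-catenin also known from T cells, measured 13.6, 15.1 and 16.6 CPM in DBL, 15.6, 11.98 and 13.3 in ColGFP and 23.9, 30.1 and 27.7 in TDonly. DBL was lower than TDonly (-0.85 ± 0.14, adjusted p = 0.00148), and TDonly higher than ColGFP (1.00 ± 0.14, adjusted p = 0.000311). Summed leukocyte markers, 10 genes, were 2014 to 2886 CPM in TDonly, 1316 to 1513 in DBL, 2425 in ColGFP 1, 1225 in ColGFP 2 and 954 in ColGFP 3. The sum in ColGFP 1 was above that in TDonly 1 (2014 CPM). This sum covers leukocytes of several kinds, so it does not give the level of T cells. Of the 10 markers, 1 was lower in DBL than in TDonly by edgeR, and 0 passed between TDonly and ColGFP (0 at an unadjusted p under 0.05, and 8 higher in TDonly within the second series). Their part in the result was not tested.

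Rnf43, the partner ligase of Znrf3, was higher in TDonly than in ColGFP (log2 fold change 0.69 ± 0.24, adjusted p = 0.0416), a call lost without DBL 1, DBL 3, DBL 4, ColGFP 2, ColGFP 3, TDonly 1, TDonly 2 or TDonly 3 (adjusted p 0.0508 to 0.158) and with no filter (adjusted p = 0.0577) and the 2 populations fitted alone (0.0739). DBL against ColGFP, at 0.27 ± 0.24, adjusted p = 0.547, passed without ColGFP 1 (adjusted p = 0.0355) and within the second series (0.67, adjusted p = 0.0205). Nkd2, the paralog of Nkd1, and Lef1, a relative of Tcf7, passed in no comparison over all libraries. Nkd2 passed as lower in DBL than in TDonly without TDonly 1 (adjusted p = 0.0345) and with library totals (adjusted p = 0.0396) and the series as a covariate (0.0450), and Lef1 as higher in TDonly than in ColGFP without TDonly 1 (adjusted p = 0.0422). Of the exon length of Lef1 13.7% is shared with the gene model Gm43352.

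**Figure D4:**
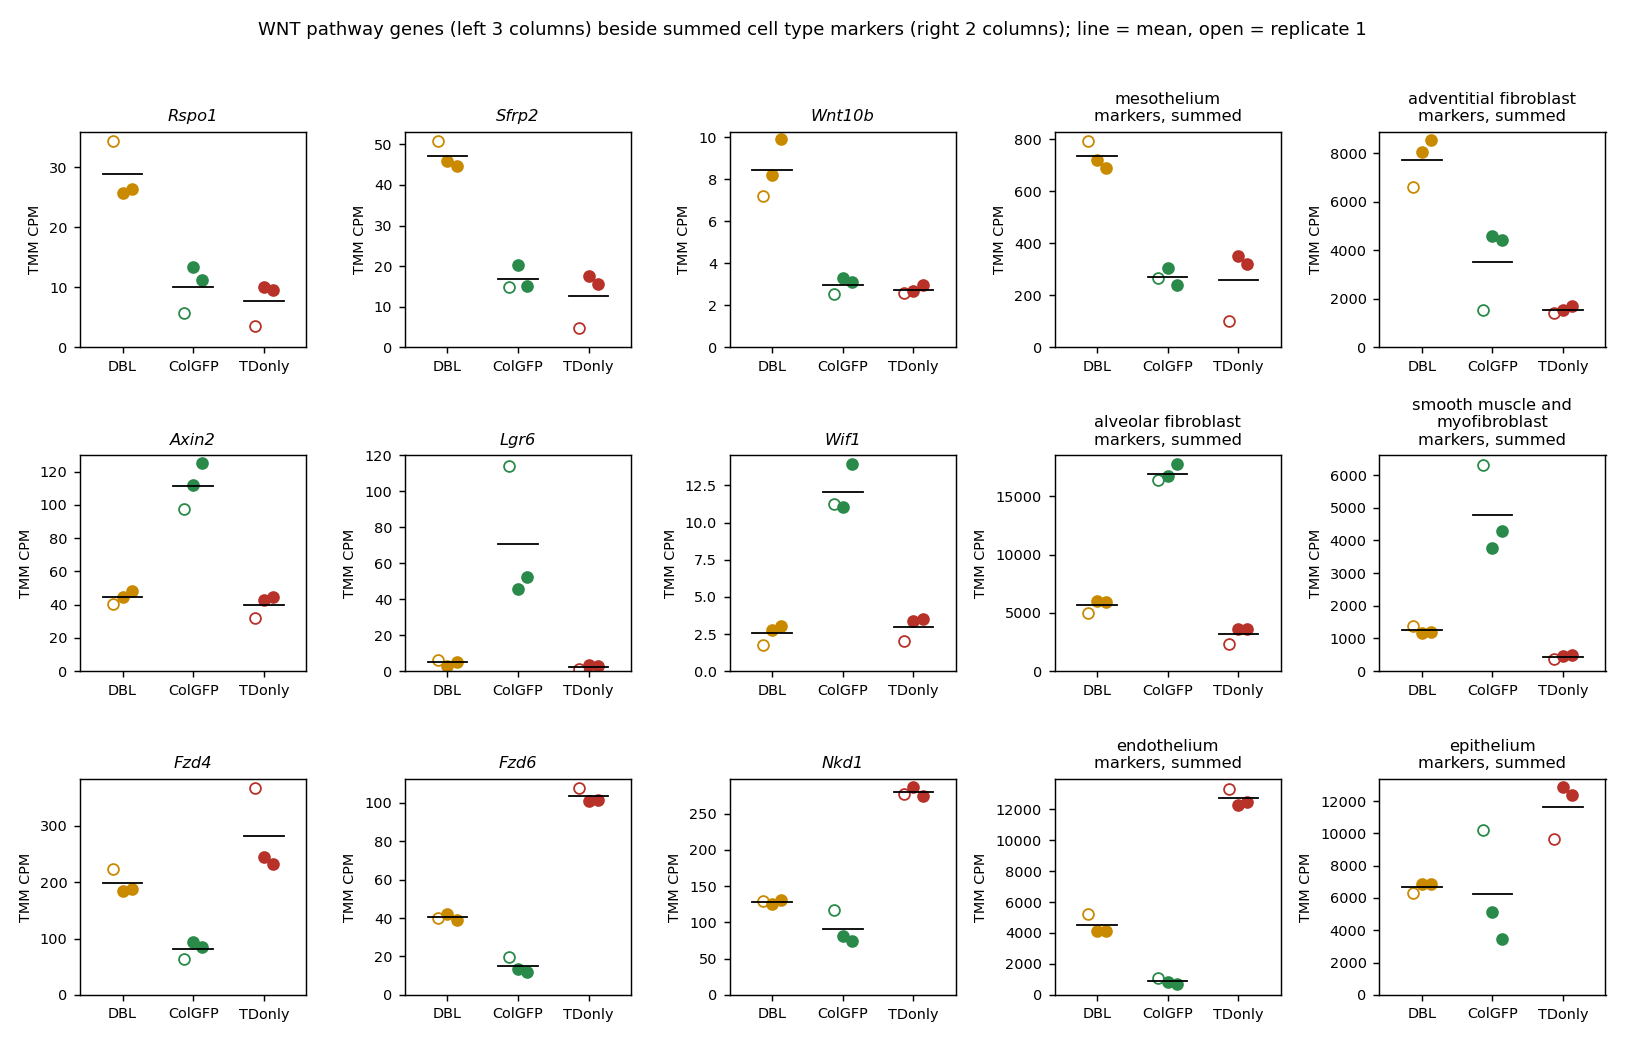
Level of 9 of the genes in each library (TMM CPM, left 3 columns) beside the summed CPM of cell type markers (right 2 columns), with the mean as a line and replicate 1 open. Rspo1, Sfrp2 and Wnt10b are highest in DBL, where the mesothelial sum is 689 to 795 CPM and the adventitial fibroblast sum 6595 to 8535 CPM. Fzd4, Fzd6 and Nkd1 are highest in TDonly, where the endothelial sum is 12302 to 13314 CPM. The epithelial sum is 9665 to 12884 CPM in TDonly and 3464 to 10176 CPM in ColGFP.

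Of the 24 genes that were lower in TDonly than in ColGFP, 21 had their lowest TDonly value in TDonly 1, as did 63.8% of the 3727 genes of the whole table that were lower. Col1a1 was at 373 CPM in TDonly 1 and 1493 and 1566 in TDonly 2 and TDonly 3. The mean of Col1a1 in TDonly was 14.5% of that in ColGFP. For the 24 genes this percentage was 3.41% to 79.2%, and it was under that of Col1a1 for 7 of them: 3.41% for Lgr6, 4.47% for Lgr5, 6.62% for Wnt5a, 6.95% for Rspo2, 7.86% for Dkk3, 9.05% for Rspo4 and 12.3% for Wnt2. The part of collagen-expressing cells in these values was not tested. Of the 9 genes higher in TDonly than in ColGFP, 2 had their lowest TDonly value in TDonly 1, against 28.3% of the 3355 such genes of the whole table.

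The rest of the pathway was read from a list of 59 further genes, of which 57 were in the table under these symbols and were tested. Between DBL and ColGFP 10 were higher in DBL and 10 lower, between DBL and TDonly 20 and 14, and between TDonly and ColGFP 15 higher in TDonly and 24 lower. These are 35.1%, 59.6% and 68.4% of the 57, against 14.5%, 29.9% and 45.5% of all genes. The median log2 fold changes were -0.04, 0.068 and -0.124. Of 11 alternative receptors and planar polarity genes, 4 were higher and 3 lower in DBL than in ColGFP, 4 higher and 5 lower in DBL than in TDonly, and 6 higher and 4 lower in TDonly than in ColGFP.

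In that group Ror2, a receptor of Wnt5a, was higher in DBL than in TDonly by a log2 fold change of 2.72 ± 0.24 and lower in TDonly than in ColGFP at -3.56 ± 0.24. Its relative Ror1 was higher in DBL than in TDonly by 1.28 ± 0.13. Ptk7, a co-receptor of cell polarity, was lower than in ColGFP both in DBL (-1.62 ± 0.16) and in TDonly (-2.69 ± 0.17), and so was Ryk, a receptor with a WIF domain (-0.71 ± 0.10 and -1.27 ± 0.10). The planar polarity genes Prickle1, Prickle2 and Celsr2 stood the other way. They were higher in DBL than in ColGFP, at 1.36 ± 0.13, 0.87 ± 0.09 and 1.49 ± 0.18, and higher in TDonly than in ColGFP, at 2.23 ± 0.14, 1.91 ± 0.09 and 2.79 ± 0.19.

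Among nuclear factors the co-repressor Tle1 was higher than in ColGFP both in DBL (log2 fold change 0.72 ± 0.08) and in TDonly (1.59 ± 0.08). DBL was lower than TDonly for Tle1 (-0.87 ± 0.08) and its relative Tle4 (-0.96 ± 0.11), and higher for the TCF factors Tcf7l1 (1.01 ± 0.11) and Tcf7l2 (0.95 ± 0.09). Apc2, a paralog of the scaffold Apc, was lower than in ColGFP in DBL (-0.83 ± 0.15) and in TDonly (-2.10 ± 0.15), and the receptor Tnfrsf19, a WNT target, was lower in DBL than in ColGFP (-2.30 ± 0.43).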

How the data were processed

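Read counts per gene symbol of 9 libraries were analysed. Per the submitters' processing notes, the authors trimmed reads with cutadapt, aligned them to mm10 with TopHat and counted them with HTSeq, and the deposited values are raw counts. The sources used here do not give versions, annotation or strand setting, and the protocol text describes whole frozen lungs. Columns were matched to samples by core number, and 3 columns of no sample were not used. The genes and lists were chosen with earlier results of these data known.

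All 9 libraries were fitted in 1 model of 3 populations with edgeR 4.0.16 in R 4.3.3 (TMM factors, filterByExpr with a minimum count of 10, quasi-likelihood test, 6 residual degrees of freedom, prior degrees of freedom 3.42), and p-values were adjusted by Benjamini-Hochberg over all 15550 genes tested. The pipeline was tested on simulated data. DESeq2 1.42.0, other scalings and filters, each pair of populations alone, the second series alone, the series as covariate, a replicate block and each library left out were alternatives. Symbols, positions, exon lengths and overlaps came from GENCODE M21 (GRCm38), and promoters from RefSeq (GRCm38.p6). Values in every library are given for genes past the threshold in at least 1 comparison with a mean of 1 CPM in a population, at most the 30 of smallest adjusted p, and for the most abundant gene of each role. Other genes are given by ranges and calls, and up to 4 further pathway genes per direction and comparison by smallest adjusted p.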

Additional observations from a re-analysis of the deposited data

How the results depend on the processing

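Of 76 calls over the 48 genes and 3 comparisons, 59 were kept in all 9 fits that left out 1 library, 8 of 14 for DBL against ColGFP, 22 of 29 for DBL against TDonly and 29 of 33 for TDonly against ColGFP. Without 1 library in turn, the genes higher in DBL than in ColGFP numbered 3 to 8 and those lower 5 to 12, and over all genes those lower in DBL than in ColGFP numbered 581 to 1298 and those lower in DBL than in TDonly 1155 to 2019. Within the second series, with 2 libraries a population, 14 of the genes were higher and 15 lower in DBL than in ColGFP, 2543 and 1969 of all genes, and 3031 of all genes were lower in DBL than in TDonly. With library totals 8 of the genes and 2454 of all genes were lower in DBL than in TDonly.

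The labels do not say that a shared replicate number marks a shared animal or day, and same-numbered libraries of 2 populations had correlations of deviations of 0.016 to 0.527, not all over 0.1, so they were not treated as pairs. Core numbers run in another order: DBL 3, ColGFP 2 and TDonly 2, then DBL 4, ColGFP 3 and TDonly 3. Along that order DBL and TDonly correlated at 0.306 and 0.34, DBL and ColGFP at 0.014 and 0.122, and ColGFP and TDonly at 0.045 and 0.079. A fit with pairs or blocks by that order was not run. The 3 libraries numbered 1 are also those of the lower core-number series: DBL and TDonly libraries correlated at 0.232 to 0.527 within a series and -0.424 to -0.358 across series, and ColGFP libraries with either population at -0.115 to 0.122. Deviations from the mean of a population cancel out over its libraries for each gene. The negative values across series thus follow from the positive ones within a series and are not a separate result. The replicate block groups libraries by replicate number. DBL 4 shares its number with no other library, so it adds nothing to the differences under that block. With the replicate block, 6 genes were higher and 8 lower in DBL than in ColGFP, 20 and 4 against TDonly, and 7 higher and 25 lower in TDonly than in ColGFP. Of all 15550 genes these directions held 955 (6.14%), 626 (4.03%), 2156 (13.9%), 1438 (9.25%), 3039 (19.5%) and 3444 (22.1%). By edgeR with the block, 8 calls were lost: Wnt2 in DBL against ColGFP (adjusted p = 0.101); Wnt2 (0.135), Wnt9b (0.126), Frzb (0.0988), Znrf3 (0.0690) and Rspo4 (0.0597) in DBL against TDonly; and Wnt7a (0.107) and Rnf43 (0.0766) in TDonly against ColGFP. Wnt2b then passed in DBL against ColGFP (0.0156) and TDonly against ColGFP (0.0261).

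These log2 fold changes, none past the threshold over all libraries, changed sign. Within the second series they were -0.54 for Frzb, -0.22 for Sfrp1 and 0.023 for Wnt9a (DBL against ColGFP) and 0.19 for Fzd9 (DBL against TDonly), with the replicate block 0.15 for Fzd9 (DBL against TDonly) and -0.0746 for Sfrp5 (DBL against ColGFP), and with library totals 0.036 for Wnt10b (TDonly against ColGFP) and -0.0092 for Wnt7b (DBL against TDonly). Of these, Sfrp1 within the second series was past the threshold (adjusted p = 0.0414). Over the fits without 1 library, DBL against ColGFP ran from -0.68 to 0.24 for Dkk1, -0.18 to 0.93 for Frzb, -0.042 to 0.24 for Fzd2, -0.11 to 0.35 for Sfrp1, -0.011 to 1.63 for Wnt3a, -0.0078 to 0.28 for Wnt5b and -0.27 to 0.068 for Wnt9a. DBL against TDonly ran from -0.45 to 0.063 for Fzd9 and -0.14 to 0.42 for Wnt7b, and TDonly against ColGFP from -0.56 to 0.25 for Dkk2. The cause was not tested. Low counts limit Wnt6, Wnt9b, Fzd10, Rspo2, Rspo4 and the 7 untested genes.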
